A study of Mus musculus with 11 samples.

Results

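Mitochondrial ribosomal protein genes were measured in T-cell leukemias of mice that express human TCL1A, the oncogene activated in T-cell prolymphocytic leukemia, and in wild-type T-cells. The genes were chosen by name alone, as every gene whose symbol starts with Mrpl or Mrps followed by a digit and whose row in the array table carries that symbol only. This gave 77 of the 19937 genes measured, from 85 rows, because 8 genes had a second row and the brighter row was kept. Of the 77 genes, 50 encode proteins of the large subunit and 26 proteins of the small subunit. Mrps30 and Mrps18a are counted with the large subunit, where their proteins sit despite their names. Mrps36 encodes a subunit of the oxoglutarate dehydrogenase complex and is not a ribosomal protein.

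The mitochondrial ribosome translates the few proteins that the mitochondrial genome encodes, all of them membrane subunits of the oxidative phosphorylation complexes. Its ribosomal RNAs come from mitochondrial DNA, but its proteins are encoded in the nucleus, made in the cytosol and imported. Compared with its bacterial relative it has less RNA and many added proteins, so its proteins fall into those with a bacterial counterpart and those without one. T-cells that are activated to grow enlarge their mitochondria and need this ribosome to supply new respiratory complexes.

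Expression was measured with the Affymetrix Mouse Gene 1.0 ST array in splenic T-cells, on 11 arrays. The 5 exponential phase arrays came from Lckpr-TCL1A+/- mice, which carry human TCL1A under the proximal Lck promoter active in the T-lineage, at an average age of 15 months, with more than 80% tumor cells in blood, more than 90% in spleen and a lymphocyte doubling time of 12 days. The 3 chronic phase arrays came from mice of the same genotype at an average age of 12 months with 30 to 70% tumor cells. The 3 wild-type arrays came from age-matched C57BL/6 mice, each from a pool of 3 animals. CD8+ T-cells were enriched from the leukemic spleens, whereas CD3+ T-cells of every kind were purified from wild-type spleens, and the effects of genotype and of this selection cannot be told apart in any comparison with wild type. No source used here states that each leukemia array held RNA of 1 mouse, and p-values therefore cover array-to-array spread alone, part of which may be technical. Exponential replicate 4 went against its CD8 label, with Cd8a at 2.96 and Cd4 at 5.18 on the log2 scale. The rest of the exponential group had Cd8a at 7.94 to 8.20 and Cd4 at 2.15 to 2.44. Results that rest on it are also given without it.

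Promoters of the members were read from RefSeq, assembly GRCm38.p6, as windows of 300 bases that run from 250 bases before to 50 bases after the transcription start. A window was found for 68 of the 77 genes, and 74 windows were searched on both strands for short sequences bound by regulators of mitochondrial genes. CCGGAAG, the core bound by ETS factors such as GABPA, was in 33.8% of the member windows (25 of 74) and in 11.6% of the 21263 windows of protein-coding genes. ATGGCGG, the YY1 core, was in 16.2% of member windows (12) against 5.25% of protein-coding windows. GCATGCG, the NRF1 core, was in 10.8% (8) against 4.44%, and CACGTG, the E-box that MYC binds, in 9.46% (7) against 7.84%. The 7 windows with the E-box belong to 5 of the 68 genes, because overlapping windows of Mrpl2 each hold it. At least 1 of these motifs was found in 41 member windows and at least 2 of them in 10, and 0 hits shared bases with a hit of another kind. These are matches of letters, not measured binding. No motif was found in 33 member windows, among them those of Mrps14 and Mrpl30, which also had high values in the leukemias. The windows of 4 members that had high values in the leukemias and hold a motif are shown to place such matches. Matching letters are in capitals and the last 50 bases lie downstream of the start. Mrps33 (chr6:39810887-39811186, minus strand) and Mrps26 (chr2:130563507-130563806, plus strand) hold the ETS core, read on the opposite strand, starting at position 38 and position -14 from the start site. Mrpl35 (chr6:71823735-71824034, minus strand) and Mrps30 (chr13:118387203-118387502, minus strand) hold the YY1 core, starting at position 26 and position 18.
Mrps33: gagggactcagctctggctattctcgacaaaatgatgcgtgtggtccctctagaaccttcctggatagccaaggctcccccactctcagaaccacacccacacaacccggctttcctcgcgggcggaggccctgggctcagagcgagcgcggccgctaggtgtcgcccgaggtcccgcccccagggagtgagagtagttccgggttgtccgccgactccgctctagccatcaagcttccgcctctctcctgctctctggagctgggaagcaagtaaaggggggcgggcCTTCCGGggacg
Mrps26: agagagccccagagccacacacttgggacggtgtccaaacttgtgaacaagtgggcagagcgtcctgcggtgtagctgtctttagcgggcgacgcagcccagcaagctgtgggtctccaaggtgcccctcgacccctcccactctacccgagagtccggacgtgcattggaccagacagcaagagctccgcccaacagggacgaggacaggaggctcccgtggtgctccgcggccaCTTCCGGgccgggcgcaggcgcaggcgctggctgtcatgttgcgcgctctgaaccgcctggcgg
Mrpl35: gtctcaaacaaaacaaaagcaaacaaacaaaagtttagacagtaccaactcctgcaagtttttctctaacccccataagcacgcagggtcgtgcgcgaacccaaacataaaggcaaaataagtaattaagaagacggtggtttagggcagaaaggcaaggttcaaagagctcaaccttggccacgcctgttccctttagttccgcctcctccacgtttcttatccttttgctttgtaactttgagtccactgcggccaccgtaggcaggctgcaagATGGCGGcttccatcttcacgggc
Mrps30: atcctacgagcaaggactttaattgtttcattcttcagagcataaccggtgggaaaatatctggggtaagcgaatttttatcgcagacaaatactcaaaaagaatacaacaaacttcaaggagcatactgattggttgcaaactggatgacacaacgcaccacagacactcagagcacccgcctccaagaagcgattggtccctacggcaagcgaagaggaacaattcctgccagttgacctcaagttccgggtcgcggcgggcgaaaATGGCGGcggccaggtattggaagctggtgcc

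Many members start close to a neighbour on the other strand, and whether they share a promoter was not tested. The start of another protein-coding gene lay on the other strand within 1000 bases upstream for 24 of the 68 genes (35.3%), against 8.48% of 17492 protein-coding genes. Mrpl46 and Mrps11, a large and a small subunit gene, start 42 bases apart. Mrps12 starts 147 bases from Sars2, the mitochondrial seryl-tRNA synthetase, Mrpl43 starts 116 bases from Twnk, the mitochondrial DNA helicase, and Mrpl47 starts 308 bases from Ndufb5, a complex I subunit. Mrpl49 starts 192 bases from Fau, which encodes a cytosolic ribosomal protein. In the bar chart of promoter features the ETS core and the head-to-head arrangement had the highest shares among the members.

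**Figure D1:**
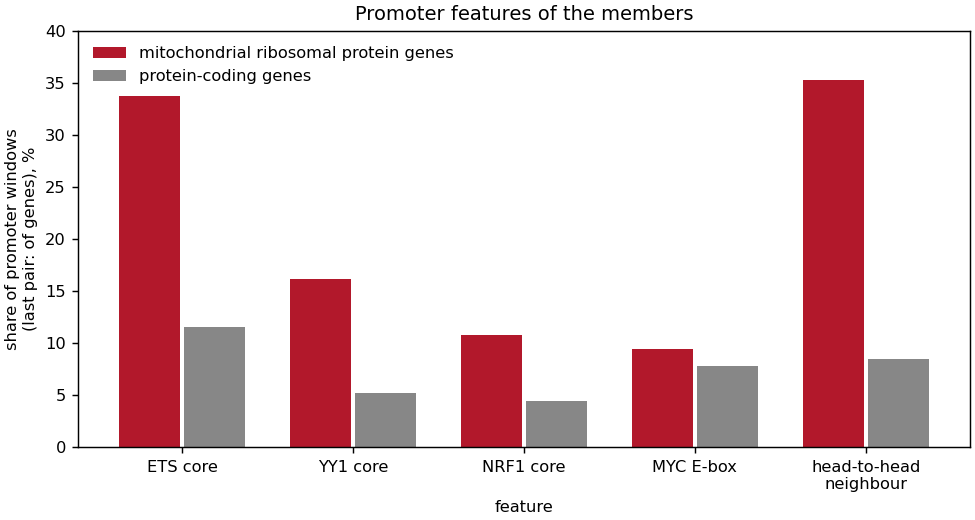
Share of promoter windows (of genes, for the last pair of bars) that hold each feature, in percent, for mitochondrial ribosomal protein genes (red) and all protein-coding genes with a window (grey). The ETS core was in 33.8% of member windows and 11.6% of protein-coding windows, whereas the E-box differed least, at 9.46% and 7.84%.

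The group as a whole was shifted slightly towards higher values in both phases of leukemia, while few single genes passed the test. The threshold for a call was an adjusted p below 0.05 (limma, Benjamini-Hochberg over all 19937 genes) together with a fold change of 1.5 or more. The difference between exponential phase and wild type was above 0 for 58 of the 77 members with a median log2 difference of 0.11, whereas 51.7% of all genes were above 0 with a median of 0.01. Between chronic phase and wild type it was above 0 for 59 members with a median of 0.18, against 49.7% of all genes and a median of 0.00. Because 71 members lay in the brighter 50% of the table, the brighter 50% of genes is the closer background, and there 54.7% were above 0 between exponential phase and wild type and 52.1% between chronic phase and wild type, with medians of 0.03 and 0.02. In bulk samples, fewer cells of a type and less RNA per cell cannot be told apart.

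Array by array, the median difference of the members from their wild-type means was 0.05, 0.12, 0.12, 0.09 and 0.14 in the exponential arrays, 0.25, 0.18 and 0.19 in the chronic arrays and -0.05, 0.02 and -0.01 in the wild-type arrays. The wild-type arrays lie near 0 by construction here. Without this centring, the median log2 level of the members was 4.11, 3.96, 4.03, 3.92 and 4.07 in the exponential arrays, 4.13, 3.86 and 4.07 in the chronic arrays and 3.77, 3.98 and 3.74 in the wild-type arrays, and the groups overlapped, since wild-type replicate 2 stood above exponential replicates 2 and 4 and chronic replicate 2. Chronic replicate 3 held the highest value of 17 members and chronic replicate 1 that of 15. Wild-type replicate 1 held the lowest value of 18 members, which the heat map shows as its darker blue cells. The SD over the 8 leukemia arrays had a median of 0.25 for the members and 0.19 for all genes.

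**Figure D2:**
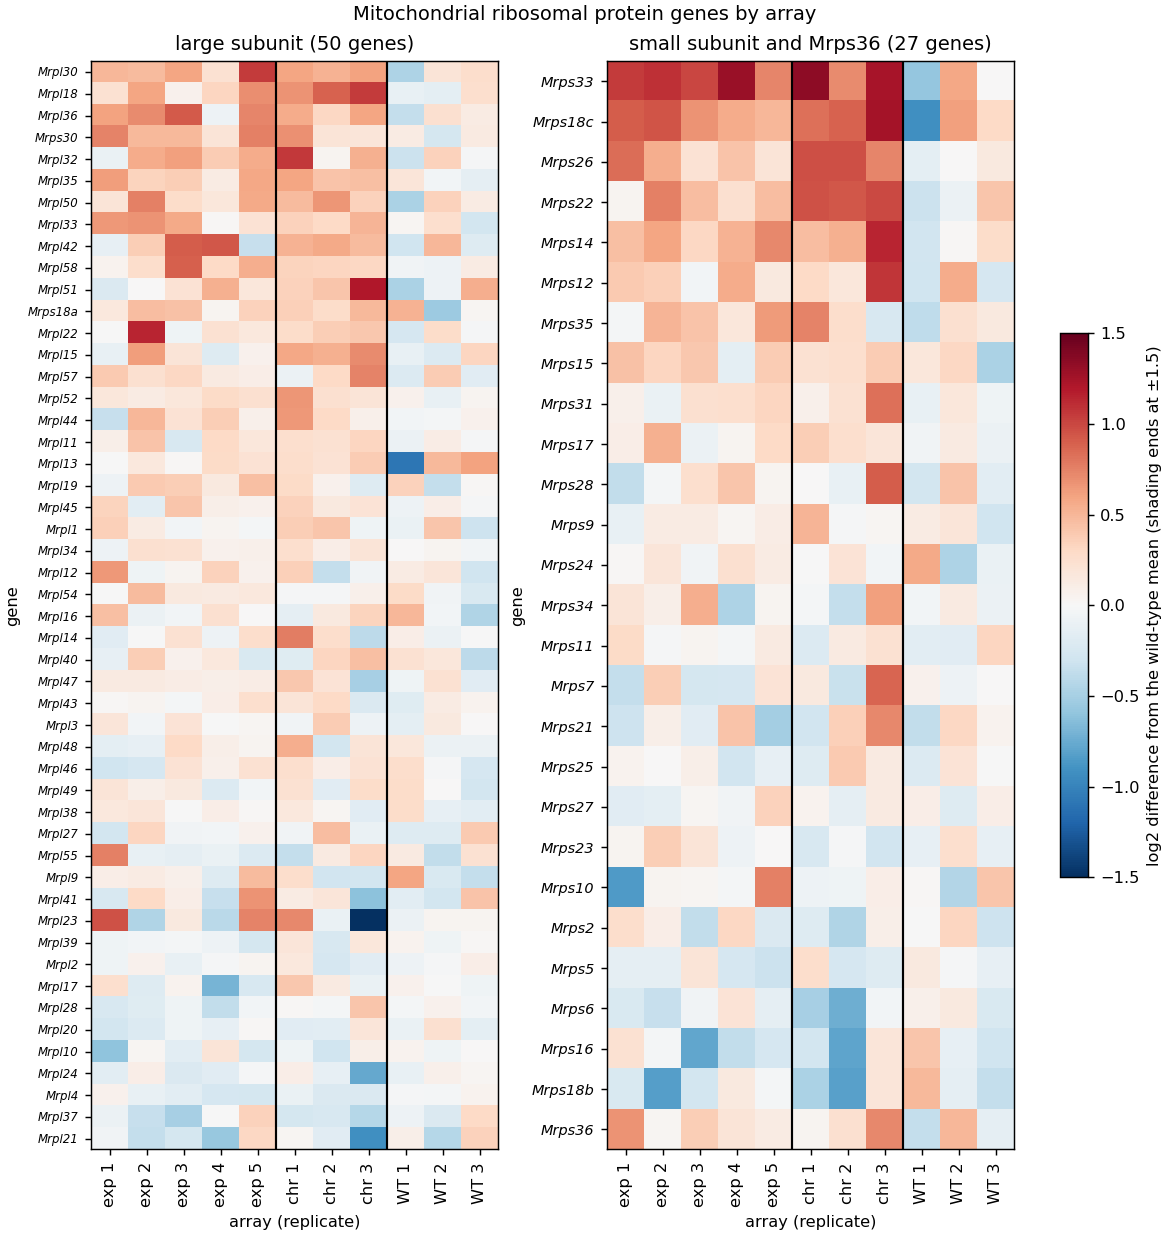
Log2 difference of each of the 77 genes (rows) from its wild-type mean on each array (columns: 5 exponential, 3 chronic, 3 wild type), with red above and blue below the mean. Genes of each subunit are ordered by their difference between all leukemias and wild type, and Mrps36 stands last. Most rows are pale and mixed, and the rows at the top, of which Mrpl30 and Mrps33 lead, are mostly red in the leukemia arrays.

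Both subunits had positive medians. Large subunit genes had a median log2 difference of 0.11 between exponential phase and wild type and small subunit genes of 0.08, and between chronic phase and wild type the medians were 0.17 and 0.20. Genes for proteins without a bacterial counterpart were above 0 between all leukemias and wild type in 17 of 19 cases in the large subunit and 8 of 9 in the small subunit. Genes for proteins with a bacterial counterpart were above 0 in 22 of 31 and 11 of 17 cases. Members whose window held the ETS core (25 genes) had a median difference of 0.14 between exponential phase and wild type and 0.32 between chronic phase and wild type, against 0.10 and 0.13 for the 43 genes without it. The other motifs went the other way. Members with the YY1 core (12 genes) had medians of 0.10 and 0.08, against 0.11 and 0.19 for the 56 without it. Those with the NRF1 core (8 genes) had 0.01 and 0.09, against 0.11 and 0.19 for the 60 without it. With the E-box (5 genes) the medians were -0.02 and -0.05, against 0.11 and 0.19 for the 63 without it. These splits are descriptions, and the differences between them were not tested.

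Between exponential phase and wild type, 0 members were called, and 0.416% of all genes were (83). At an unadjusted p under 0.05, 11 members stood higher and 0 lower, against 4.79% of all genes higher and 4.99% lower, and the methods' t-test with the same adjustment also called 0. Among the brighter 50% of genes 8.36% were higher and 7.45% lower at that p. Only 5 members had all exponential arrays above all wild-type arrays (background 3.28% of all genes and 4.85% of the brighter 50%), and 1, Mrpl28, had all below (background 3.5% and 4.3%). Without exponential replicate 4 the count of calls was 0 and the median difference 0.11.

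Mrps33, a small subunit protein without a bacterial counterpart, had the largest difference of all members. Its row was at 6.54, 6.58, 6.49, 6.79 and 6.22 in the exponential arrays, at 6.83, 6.19 and 6.73 in the chronic arrays and at 4.91, 6.07 and 5.49 in the wild-type arrays. Every leukemia array lay above every wild-type array, although wild-type replicate 2 came within 0.13 of the lowest leukemia array. The log2 difference was 1.03 ± 0.23 (SE) between exponential phase and wild type (adjusted p = 0.113, limma) and 1.10 ± 0.30 between chronic phase and wild type (adjusted p = 0.212). Taken as 1 group, the 8 leukemia arrays were 2.08-fold higher than wild type (log2 difference 1.06 ± 0.21, adjusted p = 0.0384, limma), the 1 call among members in that comparison, in which 0.722% of all genes (144) and 1.36% of the brighter 50% (136) were called. A count of 1 in 77 is near that background. This call was lost without wild-type replicate 1 (adjusted p = 0.209), wild-type replicate 3 (0.148), exponential replicates 1, 2 or 3 (0.0623, 0.0748 and 0.0774) or chronic replicates 1 or 3 (0.0715 and 0.0608), and kept without exponential replicate 4.

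The row behind that value carries a limit of its own. Row identifiers of this array run along the genome, so that 97.2% of 21553 rows lie among rows of genes on their own chromosome. The kept Mrps33 row lies among rows of which 18 of 20 belong to chromosome 7, while the gene is on chromosome 6. A second Mrps33 row, among rows of chromosome 6, was dimmer, at 2.62, 2.41, 2.66, 2.56 and 2.53 in the exponential arrays, 2.07, 2.24 and 2.37 in the chronic arrays and 1.75, 1.70 and 2.00 in the wild-type arrays. In this row too every leukemia array lay above every wild-type array. With it in place of the brighter row, the log2 difference was 0.74 between exponential phase and wild type (adjusted p = 0.0242, limma, a call), 0.41 between chronic phase and wild type (adjusted p = 0.322) and 0.62 between all leukemias and wild type (adjusted p = 0.0508, limma). Kept rows of Mrpl23, Mrpl27, Mrpl41, Mrpl48 and Mrpl51 also lay among rows of another chromosome, and whether near-identical copies contribute to them was not tested.

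Mrps14, the counterpart of bacterial S14 in the small subunit, was at 5.00, 5.15, 4.86, 5.08 and 5.27 in the exponential arrays, 5.02, 5.09 and 5.70 in the chronic arrays and 4.27, 4.57 and 4.83 in the wild-type arrays. The leukemia and wild-type arrays did not overlap, by a margin of 0.03. The log2 difference was 0.52 ± 0.14 in exponential phase (adjusted p = 0.210, limma) and 0.71 ± 0.22 in chronic phase (adjusted p = 0.272). Mrps30, a large subunit protein without a bacterial counterpart, had 4.19, 3.94, 3.94, 3.63 and 4.21 in the exponential arrays, 4.13, 3.64 and 3.63 in the chronic arrays and 3.57, 3.18 and 3.58 in the wild-type arrays. Its lowest leukemia arrays stood just above the highest wild-type array, and its adjusted p was 0.234 between exponential phase and wild type (log2 difference 0.54 ± 0.16, limma). Mrpl52, another protein of this kind, lay between 4.42 and 4.59 in the exponential arrays, 4.49 and 4.96 in the chronic arrays and 4.19 and 4.37 in the wild-type arrays, again without overlap. Together with Mrps33 and Mrps26 these were the 5 members whose 8 leukemia arrays all stood above the 3 wild-type arrays (background 1.67% of all genes and 2.81% of the brighter 50%), and 0 members stood below (background 1.65% and 2.27%). At an unadjusted p under 0.05, 14 members were higher over all leukemias and 0 lower, against 5.47% and 5.1% of all genes and 9.5% and 7.49% of the brighter 50%. Of the 77 differences 59 were above 0, against 51.1% of all genes and 53.9% of the brighter 50%.

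Other members with small unadjusted p overlapped the wild-type arrays or stood near them. Mrpl35, the counterpart of bacterial L35, was at 5.35, 5.05, 5.09, 4.84 and 5.30 in the exponential arrays, 5.31, 5.15 and 5.17 in the chronic arrays and 4.90, 4.68 and 4.58 in the wild-type arrays. Only exponential replicate 4 fell below a wild-type array, and the log2 difference of all leukemias from wild type was 0.44 ± 0.12 (adjusted p = 0.133, limma). Mrpl30, the counterpart of bacterial L30, had 6.66, 6.63, 6.75, 6.39 and 7.21 in the exponential arrays, 6.76, 6.69 and 6.76 in the chronic arrays and 5.70, 6.36 and 6.42 in the wild-type arrays. Again exponential replicate 4 was the only leukemia array below a wild-type array. For Mrps18c, 1 of the proteins related to bacterial S18, the difference of 0.82 ± 0.26 between all leukemias and wild type (adjusted p = 0.232) rested on wild-type replicate 1, which was at 3.99 while the other wild-type arrays were at 5.53 and 5.21.

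**Figure D3:**
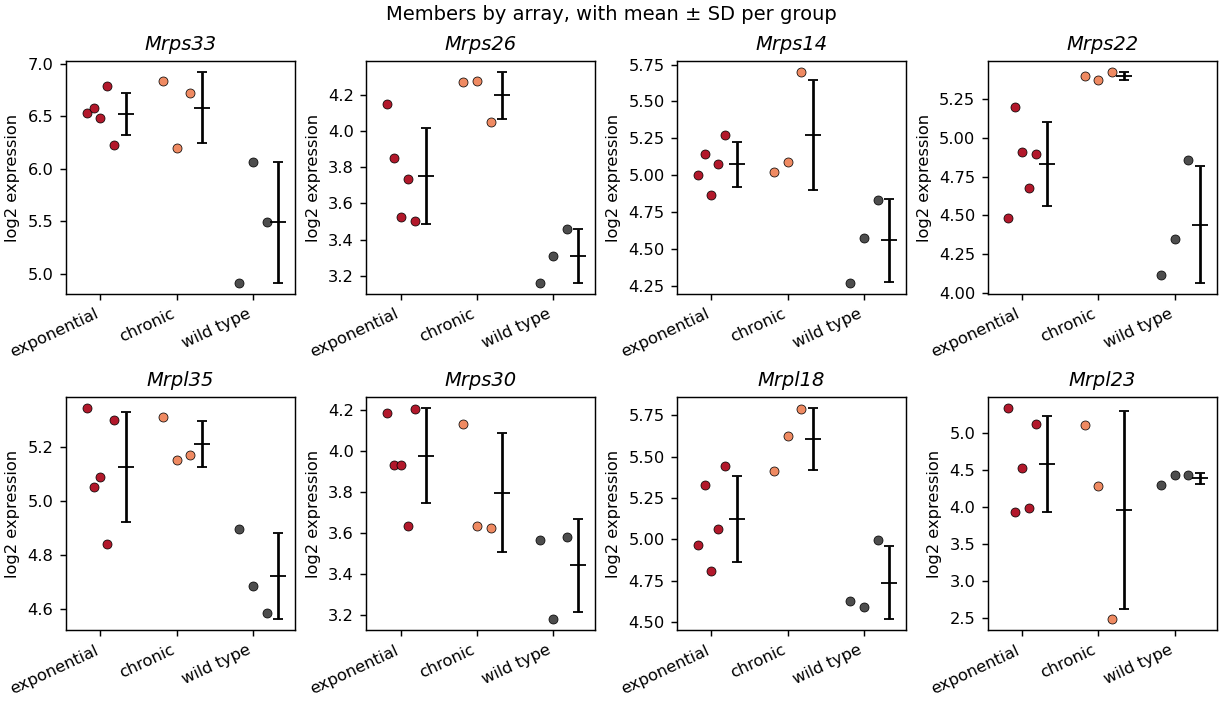
Log2 expression of 8 members on each array (points) with mean ± SD of each group (bars), in exponential phase (n = 5), chronic phase (n = 3) and wild type (n = 3). Each panel has its own axis. Mrps33, Mrps26, Mrps14 and Mrps30 show no overlap between leukemia and wild-type arrays, the chronic arrays of Mrps22 stand above all others, and Mrpl23 spreads widest.

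Between chronic phase and wild type, 1 member was called, against 0.456% of all genes (91) and 0.903% of the brighter 50% (90), so that this count is near its background. It was Mrps26, a small subunit protein without a bacterial counterpart, at 4.15, 3.85, 3.53, 3.74 and 3.50 in the exponential arrays, 4.27, 4.28 and 4.05 in the chronic arrays and 3.16, 3.31 and 3.46 in the wild-type arrays. The 3 chronic arrays lay well above the wild-type arrays, and the exponential arrays spread between the 2 groups without reaching down to wild type. Mrps26 rose 1.85-fold in chronic phase relative to wild type (log2 difference 0.89 ± 0.13, adjusted p = 0.0452, limma), and its difference in exponential phase was 0.44 ± 0.16 (adjusted p = 0.359). The call was kept without chronic replicate 3 and lost without any other array, at adjusted p values of 0.0968 to 0.154.

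The chronic arrays stood apart from wild type more often than the exponential arrays, which are also more numerous and so overlap more easily. In 20 members all chronic arrays lay above all wild-type arrays (background 8.28% of all genes and 11.3% of the brighter 50%), and in 2, Mrpl4 and Mrpl37, all lay below (background 7.52% and 9.0%). At an unadjusted p under 0.05, 15 members were higher and 0 lower, against 6.36% of all genes higher and 4.8% lower, and 11.2% and 8.17% of the brighter 50%. Mrps22, a small subunit protein in which human mutations cause mitochondrial disease, was at 4.48, 5.20, 4.91, 4.68 and 4.90 in the exponential arrays, 5.40, 5.37 and 5.43 in the chronic arrays and 4.12, 4.35 and 4.86 in the wild-type arrays. Its chronic arrays lay close together and exceeded every other array, with a log2 difference from wild type of 0.96 ± 0.19 (adjusted p = 0.0980, limma). Mrpl18, the counterpart of bacterial L18, was at 4.97, 5.33, 4.81, 5.06 and 5.44 in the exponential arrays, 5.41, 5.62 and 5.79 in the chronic arrays and 4.63, 4.59 and 4.99 in the wild-type arrays. Chronic and wild-type arrays did not overlap, and the log2 difference was 0.87 ± 0.16 (adjusted p = 0.0802). Mrpl15, the counterpart of bacterial L15, gave 0.61 ± 0.16 between chronic phase and wild type (adjusted p = 0.204).

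Between the phases themselves, 0 members and 0 of all genes (0%) were called by limma, and the methods' t-test also called 0. The median log2 difference of the members, exponential minus chronic, was -0.07, and 28 of 77 were above 0 against 51.1% of all genes. Without chronic replicate 3 the median was -0.03 and 36 of 77 were above 0, and with any 1 array left out the count was 26 to 36. At an unadjusted p under 0.05, 6 members were lower in exponential phase (background 3.5%) and 1, Mrps23, was higher (background 2.75%). The smallest p belonged to Mrps22, with a difference of -0.56 ± 0.15 (adjusted p = 0.748, limma), followed by Mrpl18 at -0.48 ± 0.16, Mrps26 at -0.45 ± 0.16 and Mrpl15 at -0.49 ± 0.17, all with adjusted p of 0.765 or more. Mrpl28, the counterpart of bacterial L28, was at 2.02, 2.08, 2.20, 1.89 and 2.21 in the exponential arrays and 2.28, 2.23 and 2.67 in the chronic arrays. It and Mrps22 were the 2 members whose exponential arrays all lay below all chronic arrays (background 2.25%), and 0 lay above (background 2.3%). The comparisons of each phase with wild type share the same wild-type arrays, so the 2 sets of differences are not independent.

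Members differed in how much they varied between the leukemia arrays. Mrpl23, the counterpart of bacterial L23, had the largest SD over the leukemia arrays (0.93), with 5.34, 3.93, 4.53, 3.98 and 5.12 in the exponential arrays, 5.10, 4.28 and 2.48 in the chronic arrays and 4.30, 4.42 and 4.43 in the wild-type arrays. Chronic replicate 3 was the lowest array by more than 1 log2 unit, and the row is among those that lie with rows of another chromosome. The second Mrpl23 row, which was not kept, had an SD of 0.31 over the leukemia arrays, at 3.25, 3.44, 3.02, 3.52 and 3.52 in the exponential arrays, 3.71, 3.03 and 2.80 in the chronic arrays and 2.92, 3.35 and 3.05 in the wild-type arrays. The next were Mrpl42, Mrps7, Mrps10 and Mrps21, with SDs of 0.45, 0.44, 0.43 and 0.43. Mrps7, which binds ribosomal RNA of the small subunit, was highest in chronic replicate 3 at 4.47 and lay at 3.96 or below in all other arrays. At the other end, Mrpl4, a counterpart of bacterial L4, had an SD of 0.11 and lay between 3.24 and 3.56 in the exponential arrays, 3.27 and 3.39 in the chronic arrays and 3.46 and 3.55 in the wild-type arrays. Mrpl34, Mrpl38, Mrps24 and Mrpl2 had SDs of 0.12, 0.12, 0.12 and 0.13.

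Brightness differs between rows for reasons of probe design and is not a measure of transcript amount, so levels are given only to place the rows. The brightest rows were Mrpl39 (6.93 over all arrays), Mrpl30 (6.57) and Mrps33 (6.26), and the dimmest were Mrpl43 (1.96), Mrps27 (2.08) and Mrpl14 (2.20). Mrpl39, a large subunit protein without a bacterial counterpart, differed by -0.09 ± 0.09 between exponential phase and wild type (adjusted p = 0.839, limma). Mrpl12, whose bacterial counterpart forms the ribosomal stalk, gave 0.21 ± 0.18 in exponential phase (adjusted p = 0.801) and -0.02 ± 0.21 in chronic phase (adjusted p = 0.991). Mrps12, of the decoding centre, gave 0.28 ± 0.21 and 0.51 ± 0.30 (adjusted p = 0.759 and 0.629). Mrpl58, a peptidyl-tRNA hydrolase built into the large subunit, gave 0.41 ± 0.18 and 0.32 ± 0.11 (adjusted p = 0.483 and 0.339), and Mrps36 gave 0.28 ± 0.21 and 0.33 ± 0.26 (adjusted p = 0.759 and 0.737).

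Mitochondrial ribosomal proteins that carry other names had a median log2 difference of 0.11 between exponential phase and wild type. Between chronic phase and wild type it was 0.15. Of 6 listed genes 4 were measured and 0 were called in any comparison. Dap3, a GTP-binding protein of the small subunit, differed by 0.04 ± 0.19 between exponential phase and wild type, and Gadd45gip1, a large subunit protein at the tunnel exit, by 0.17 ± 0.19 (adjusted p = 0.973 and 0.863, limma). Ptcd3 gave 0.05 ± 0.14 (adjusted p = 0.959) and Chchd1, another small subunit protein, gave 0.50 ± 0.22 (adjusted p = 0.490). Of the 15 genes of the mitochondrial genome itself, 2 had a row of their own, and 0 were called. ND3, a complex I subunit that this ribosome makes, was at 12.04, 11.98, 11.81, 12.36 and 11.75 in the exponential arrays, 12.01, 11.59 and 11.73 in the chronic arrays and 11.25, 11.48 and 11.35 in the wild-type arrays. Its leukemia arrays all lay above wild type (exponential minus wild type 0.63 ± 0.14, adjusted p = 0.122, limma), while COX2, a complex IV subunit, gave 0.16 ± 0.12 (adjusted p = 0.765).

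The lists of genes that build the ribosome or supply its RNA held 1 or 2 calls each in the comparisons with wild type. These counts are too small to set against those of the ribosomal proteins. Of all genes, 0.416% were called in exponential phase, 0.456% in chronic phase and 0.722% over all leukemias. Of 22 assembly factors, C1qbp, a matrix protein that binds mitochondrial ribosomal RNA, was called higher in each comparison with wild type, and 0 others were called. It was at 6.45, 6.76, 6.98, 6.81 and 6.61 in the exponential arrays, 7.08, 6.95 and 7.00 in the chronic arrays and 5.75, 5.98 and 5.94 in the wild-type arrays, without overlap between leukemia and wild type. The log2 difference was 0.83 ± 0.13 in exponential phase (adjusted p = 0.0357, limma) and 1.12 ± 0.12 in chronic phase (adjusted p = 0.0166). The exponential call was lost without exponential replicates 2, 3 or 5 or any 1 wild-type array (adjusted p = 0.0737 to 0.118), and the chronic call without chronic replicate 1 or any 1 wild-type array (adjusted p = 0.0552 to 0.0790). Over all leukemias the difference of 0.94 ± 0.13 had an adjusted p of 0.00668, and of 0.0501 without wild-type replicate 1.

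Of 15 genes that copy or transcribe mitochondrial DNA or process its transcripts, Polg2, the accessory subunit of the mitochondrial DNA polymerase, was called lower in each comparison with wild type. Its values were 3.74, 3.53, 3.74, 4.00 and 3.85 in the exponential arrays, 3.73, 3.09 and 3.81 in the chronic arrays and 5.29, 5.18 and 4.94 in the wild-type arrays. The groups stood almost 1 log2 unit apart at their nearest arrays, with log2 differences of -1.37 ± 0.13 in exponential phase (adjusted p = 0.00317, limma) and -1.59 ± 0.21 in chronic phase (adjusted p = 0.0339). The chronic call was lost without chronic replicate 1 or any 1 wild-type array (adjusted p = 0.0605 to 0.134), and the exponential call was kept without any 1 array. The methods' t-test called it in neither phase (adjusted p = 0.0721 in exponential and 0.352 in chronic phase). Trmt10c, which cuts and methylates mitochondrial transfer RNA, was at 4.98, 4.99, 5.46, 5.32 and 5.60 in the exponential arrays, 5.57, 5.10 and 5.46 in the chronic arrays and 4.15, 4.61 and 4.47 in the wild-type arrays. It rose in all leukemias relative to wild type (log2 difference 0.90 ± 0.16, adjusted p = 0.0204, limma), a call lost without wild-type replicate 1 (0.145) or 3 (0.0807). Tfam, which packages mitochondrial DNA, gave 0.34 ± 0.19 in exponential phase (adjusted p = 0.646).

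Among 10 regulators of mitochondrial gene expression, Myc, a transcription factor of growth and ribosome synthesis, was at 8.47, 8.40, 9.42, 7.32 and 8.48 in the exponential arrays, 8.39, 8.45 and 7.88 in the chronic arrays and 6.81, 6.93 and 7.10 in the wild-type arrays. Leukemia and wild-type arrays did not overlap, and exponential replicate 4 was the lowest leukemia array. Myc rose in chronic phase relative to wild type (log2 difference 1.29 ± 0.18, adjusted p = 0.0379, limma), a call kept without chronic replicate 3 and lost without any other array (adjusted p = 0.0958 to 0.137). In exponential phase the difference was 1.47 ± 0.37 (adjusted p = 0.163). Pprc1, a coactivator related to PGC-1, gave 0.58 ± 0.14 (adjusted p = 0.147), and Gabpa and Nrf1, which bind the ETS and NRF1 cores searched above, gave 0.05 ± 0.18 (adjusted p = 0.967) and -0.14 ± 0.12 (adjusted p = 0.809). Of 16 translation factors and 16 mitochondrial transfer RNA synthetases measured, 0 were called in any comparison. Their medians in exponential phase were 0.05 and 0.06, and in chronic phase 0.22 and 0.03.

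**Figure D4:**
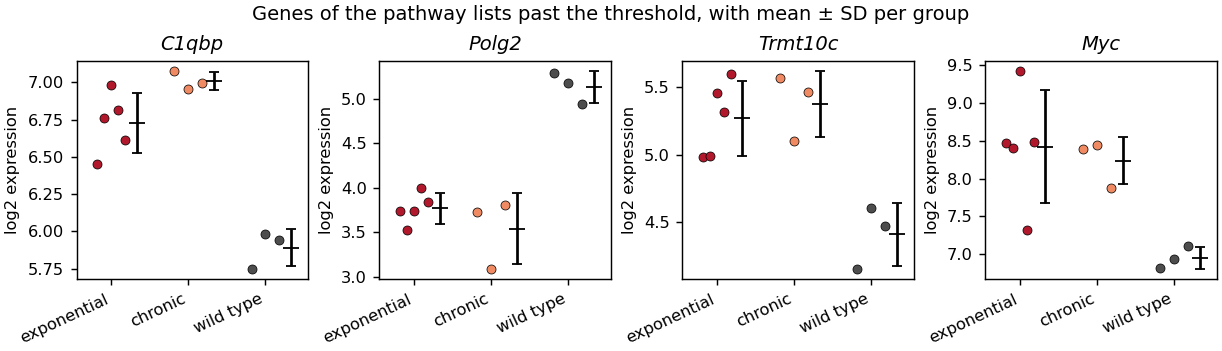
Log2 expression of C1qbp, Polg2, Trmt10c and Myc on each array (points) with mean ± SD of each group (bars), in exponential phase (n = 5), chronic phase (n = 3) and wild type (n = 3). Each panel has its own axis. The leukemia arrays of Polg2 stand below wild type and those of the other genes above it.

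Related gene groups gave the following medians. The median log2 difference between exponential phase and wild type was 0.11 for the members, 0.22 for 60 cytosolic ribosomal protein genes and 0.08 for 82 nuclear genes of oxidative phosphorylation. Between chronic phase and wild type these medians were 0.18, 0.20 and 0.17. Between exponential and chronic phase the members and the oxidative phosphorylation genes had negative medians, at -0.07 and -0.12, and the cytosolic ribosomal protein genes a positive one, at 0.09. In these groups 0 genes were called in either phase, and over all leukemias 1 of the 60 cytosolic genes (Rpl14, log2 difference 1.05 ± 0.21, adjusted p = 0.0413, limma) and 0 of the 82 were. Differences between the groups were not tested.

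**Figure D5:**
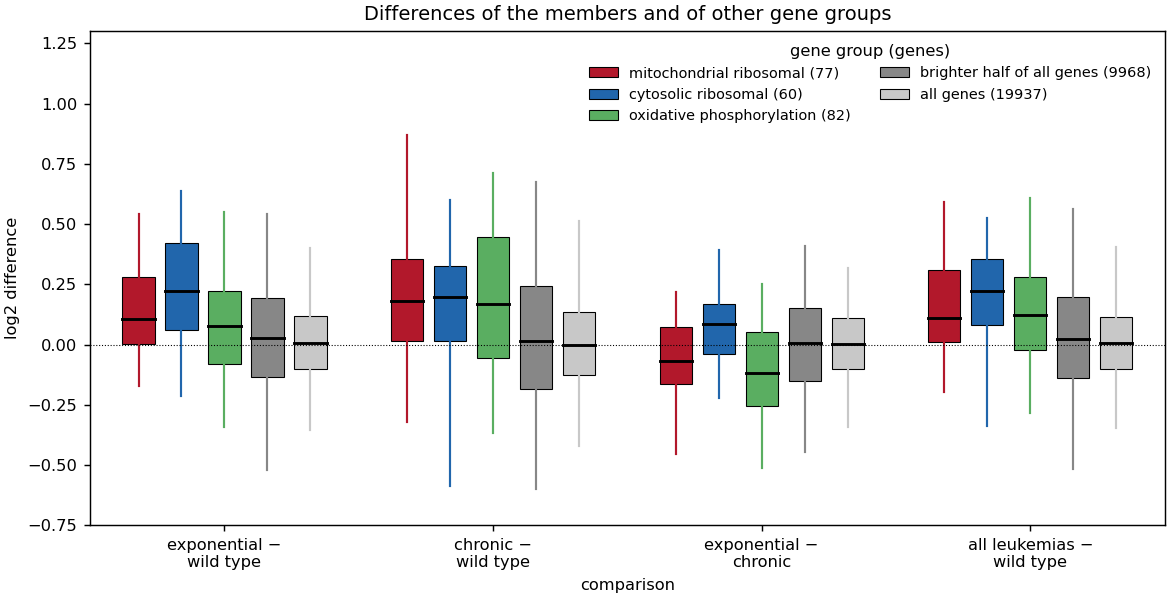
Log2 difference in each of 4 comparisons (horizontal axis) for the members and other gene groups, as the median (black line), the middle 50% of genes (box) and the 5th to 95th percentile (line). The members' box stands above 0 in each comparison with wild type and mostly below 0 between exponential and chronic phase.

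Markers of the cell cycle and of other cell types were measured on the same arrays, and several of their levels overlapped between groups. The 23 cell cycle genes measured had a median level of 3.74 to 5.78 in the exponential arrays, 4.22 to 5.43 in the chronic arrays and 3.40 to 4.26 in the wild-type arrays, and 23 of 23 had a difference above 0 between chronic phase and wild type. Without exponential replicate 4 the exponential range was 3.74 to 4.11, within that of the wild-type arrays. The summed linear level of 5 CD4 T-cell markers was 39.5 to 223 in the exponential arrays, 46.7 to 115 in the chronic arrays and 1049.8 to 1584 in the wild-type arrays. That of 11 myeloid markers was 122 to 883 in the exponential arrays, 59.0 to 75.3 in the chronic arrays and 61.5 to 72.3 in the wild-type arrays, and without exponential replicate 4 the exponential range was 122 to 261. Plasma cell markers (7 of 8 measured) summed to 114 to 329 in the exponential arrays, 132 to 1304 in the chronic arrays and 659.6 to 2412 in the wild-type arrays, and erythroid markers (9 of 12) to 94.3 to 231 in the exponential arrays, 138 to 1060.4 in the chronic arrays and 494 to 1119 in the wild-type arrays. Without exponential replicate 4 the erythroid sum was 94.3 to 143 in the exponential arrays. B-cell markers (7 of 8) summed to 67.4 to 336 in the exponential arrays, 43.3 to 171 in the chronic arrays and 53.4 to 161 in the wild-type arrays. The CD8 T-cell list held Cd8a and Cd8b1 together with Cd3e, Cd3g and Cd3d, which mark T-cells of every kind. Its sum is therefore not a measure of CD8 cells alone. The 5 genes summed to 1175 to 1831 in the exponential arrays and to 1528 to 1831 without exponential replicate 4. In the chronic arrays they summed to 995 to 1801 and in the wild-type arrays to 1272 to 1984. Between chronic phase and wild type 2 of them were above 0 and 3 below, with log2 differences from -0.72 to 1.12. The part of all these markers in the members' differences was not tested.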

How the data were processed

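RNA of 5 exponential, 3 chronic and 3 wild-type samples was hybridized to 1-colour arrays. The authors deposited values on a log2 scale, and by the study's methods the authors made them with RMA background correction and quantile normalization across arrays. The log base was judged from the range of the values (0.775 to 13.5). No detection calls entered the analysis, which leaves the background level undetermined. Precision is limited by how many arrays there are.

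Of 34760 rows, 21640 carried 1 gene symbol in the platform annotation, 1321 several and 11799 none. Rows with 1 symbol were used, the row with the highest mean was kept for each of 19937 genes, and no filter on dim rows was applied. A row shared by Mrpl53 and another gene was left out. All 77 Entrez identifiers were found in RefSeq, assembly GRCm38.p6.

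Each comparison (exponential against wild type, chronic against wild type, exponential against chronic, all leukemias against wild type) was fitted with limma 3.58.1 in R 4.3.3 on the arrays of its own groups, with Benjamini-Hochberg adjustment over all genes. Values after ± are standard errors of that fit, except where SD is written. The fits were tested on simulated data. The members, lists and tests were chosen with earlier results of these data known. Genes were named by rule: members called, the 6 with the smallest p in each comparison, the 5 with the largest and the 5 with the smallest SD over the leukemia arrays, the 3 brightest and the 3 dimmest, the 5 with the widest gap between leukemia and wild-type arrays, some regulators, and, of pathway lists, called genes and those with small p. Mrpl37 was named after its values were seen. Alternatives were a replicate block, 1 fit over all groups, array weights, a variance trend (robust), cyclic loess, the dimmest 50% of genes left out, averaged rows per gene, no fold threshold, the methods' t-test and leaving out each array. The row on the gene's own chromosome was an alternative chosen after seeing the data. Figures were drawn with Python 3.11.15 and matplotlib 3.10.9.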

Additional observations from a re-analysis of the deposited data

Results flagged for a closer look

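In 4 of the 77 members (5.19%), 1 of the 5 exponential arrays lay far from the other exponential arrays by Dixon's criterion, which chance meets in about 1 in 20 groups. Mrpl22 was at 4.0376 in exponential replicate 2, with the nearest exponential array at 3.13. Mrpl55 was at 4.1092 in exponential replicate 1, with the nearest at 3.25. Mrps15 was at 3.4573 in exponential replicate 4, the array that went against its CD8 label, with the nearest at 3.93. Mrpl39, the brightest row, was at 6.6965 in exponential replicate 5, with the nearest at 6.89.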

How the results depend on the processing

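No direction of a median difference of the members turned under any alternative run. Between exponential phase and wild type 1 member, Mrps33, was called instead of 0 with rows averaged per gene (adjusted p = 0.0325, limma) and with the row on the gene's own chromosome (0.0242), an alternative chosen after seeing the data. Between chronic phase and wild type the call of Mrps26 was lost, leaving 0, in 1 fit over all groups (adjusted p = 0.0513, limma), with the dimmest 50% of genes left out (0.0515), with cyclic loess (0.0776), with a variance trend and robust estimation (0.0760) and by the methods' t-test (0.319). Over all leukemias the call of Mrps33 was lost, leaving 0, in 1 fit over all groups (0.0533), by the methods' t-test (0.149) and with the row on its own chromosome (0.0508). With each array left out in turn, the number of members called was 0 between exponential phase and wild type, 0 to 1 between chronic phase and wild type and 0 to 1 over all leukemias, and the median log2 difference was 0.0831 to 0.142, 0.146 to 0.225 and 0.104 to 0.153 in the same comparisons. Members above 0 numbered 52 to 61 in the comparisons with wild type over all alternatives.

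Replicate numbers recur across groups. Deviations of same-numbered arrays from their group means correlated at -0.037 to 0.18 in 9 pairs, of which 4 were over 0.1. Those of differently numbered arrays correlated at -0.228 to 0.104. These weak correlations do not settle whether the numbers pair the samples, and the main fits did not use them. With the replicate block, 0 members were called in any comparison (Mrps26 in chronic phase, adjusted p = 0.0810; Mrps33 over all leukemias, 0.0704, limma), and calls over all genes numbered 139 between exponential phase and wild type and 264 over all leukemias. The members are too few for their counts of calls to be set against those over all genes. Counts over all genes depended on the setting. Between exponential phase and wild type they ran from 4 by the methods' t-test to 221 without exponential replicate 4, against 83. Between chronic phase and wild type they ran from 0 by the methods' t-test, which at an unadjusted p under 0.05 found 1738, to 154 with a variance trend and robust estimation, against 91. Over all leukemias they ran from 46 to 273, against 144. Between the phases they were 0 to 2. C1qbp in exponential phase lost its call with a variance trend and robust estimation (adjusted p = 0.0603), with the replicate block (0.0549) and by the methods' t-test (0.209). Myc in chronic phase lost its call in 1 fit over all groups (0.209), with the replicate block (0.0610) and by the methods' t-test (0.349). That t-test also lost the calls of Polg2 in both phases (0.0721 and 0.352), C1qbp in chronic phase (0.266) and Trmt10c over all leukemias (0.0844). The cause of these changes was not tested. The number of arrays limits the precision.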
